A study of Mus musculus with 90 samples.

Results

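The first transcripts to move when IFNγ reached CT26 cells, a mouse colon carcinoma line grown in culture, were examined at 2 h in cells that had not met the cytokine before. The comparison took 6 of the 90 samples of the series, picked by their labels for line, weeks of earlier exposure, treatment and hours: 3 replicates given 50 IU/mL IFNγ for 2 h and 3 control replicates of the same naive cells, labelled as BSA (a carrier protein) at 0 IU/mL and called untreated in the study's own text. All 6 were grown in the same medium with fetal bovine serum, and the labels name no transgene or deletion in either group. Samples of 3 further kinds were used for reference: naive CT26 cells after 24 h of 50 IU/mL IFNγ, naive cells of the mouse melanoma line YUMM2.1 treated in the same way for 2 h with their own controls, and CT26 cells kept in 50 IU/mL IFNγ for 1, 2 or 3 weeks and collected without rechallenge or 2 h after fresh IFNγ. RNA was read from the 3′ ends of transcripts (3′ digital gene expression), and levels are given as counts or as CPM, in which each count is divided by its library's total and brought to a common scale, with totals adjusted between libraries by the trimmed mean of M values (TMM).

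IFNγ binds a receptor pair on the cell surface, and the kinases JAK1 and JAK2 attached to it start a signal that reaches gamma-activated sites (GAS) in promoters. Among the first targets is the gene of the transcription factor IRF1, which binds interferon-stimulated response elements (ISRE) and carries the response to further genes. In mouse cells the best known products are guanylate-binding proteins (GBPs) and immunity-related GTPases (IRGs), which attack the vacuoles of intracellular pathogens, followed by the antigen-presentation machinery and by antiviral proteins.

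The 6 libraries held between 1417934 and 1677329 counts, in a series that ranged from 274719 to 3161276, and mitochondrial transcripts took between 5.93% and 6.36% of their counts. CT26 is an established line grown on its own in these cultures, and the label was checked against marker lists. Of 11 epithelial and intestinal genes, 7 had no count in any of the 6 samples (Epcam, Cdh1, Krt19, Cdx1, Vil1, Lgals4 and Muc2), and the list summed to 58.3 to 65.1 CPM in controls and 59.3 to 73.5 CPM at 2 h, most of it from Krt20. The mesenchymal list, led by Fn1, summed to 1631 to 1817 CPM in controls and 1562 to 1712 CPM at 2 h. Leukocyte markers summed to 1.86 to 3.53 CPM and 1.92 to 7.32 CPM, with Cd3e, Adgre1, Itgam and Laptm5 at 0. Endothelial Cdh5, Kdr and Tek were at 0, while Pecam1 brought that list to 281 to 286 CPM in controls and 282 to 334 CPM at 2 h. The epithelial genes Epcam, Cdh1 and Krt19 were therefore not detected in cells labelled as a carcinoma line, in treated and control samples alike. Krt8, Krt18, Krt20 and Cdx2 of the same list had counts in at least 1 sample, Krt20 in all 6.

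After 2 h, 20 genes were higher in IFNγ-treated than in control CT26 cells and 0 were lower, among 8516 genes tested by edgeR's quasi-likelihood test at an adjusted p below 0.05 (0.235% of the genes tested). By family, 19 of them were 1 IRF gene, Irf1, 9 IRGs, 4 GBPs and 5 others (Trim21, Apol10b, Gm4070, Rtp4 and Ly6a). Log2 fold changes lay between 1.28 for Ly6a and 5.80 for Tgtp1, with a median of 2.71; the value of Tgtp1 was 10.26 without control replicate 1, the 1 control with any count of it. In each of the 20 genes the lowest treated sample stood above the highest control, a separation that 7.93% of all tested genes also showed. The samples are bulk RNA, so more cells with a transcript and more transcript per cell cannot be told apart.

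At an unadjusted p below 0.05, 171 genes were higher and 138 lower, together 309 of 8516. That threshold would pass more genes than this with no change in any, so the count by itself does not show a wider response. The lowest adjusted p among genes with lower values belonged to Trip11, with a log2 fold change of -1.24 and an adjusted p of 0.272 (edgeR). DESeq2 on the same groups called 21 genes higher and 1 lower, the predicted gene Gm10184, which had 14, 0 and 27 counts in controls and none at 2 h, so that the groups met at 0. The 20 genes together took between 0.0184% and 0.0197% of all counts in controls and between 0.104% and 0.116% at 2 h.

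**Figure D1:**
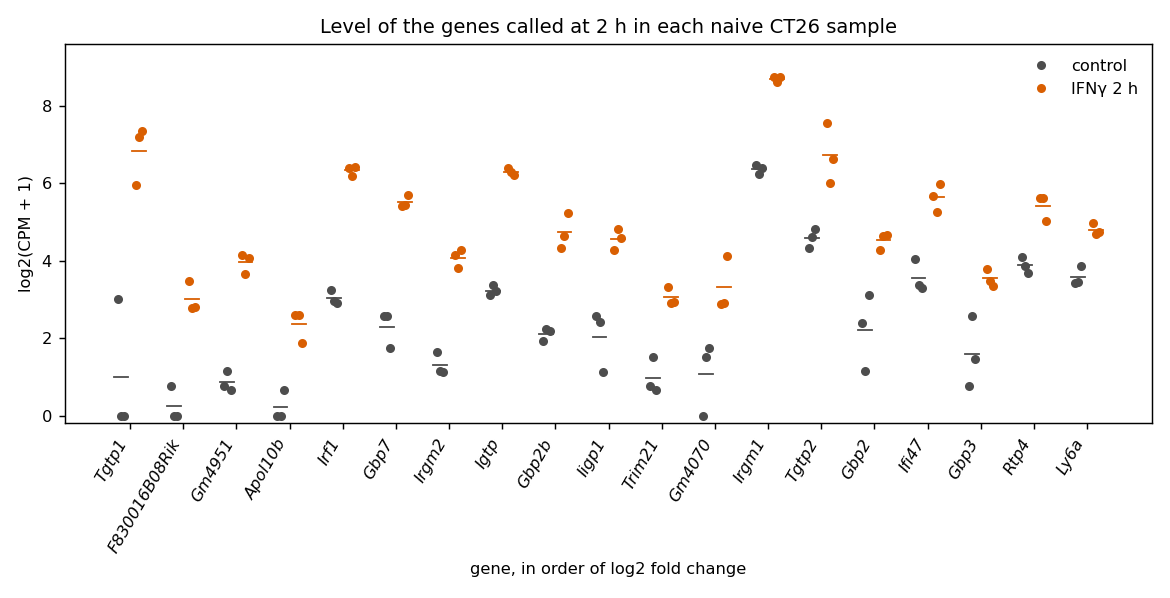
Level, as log2(CPM + 1), of 19 genes called higher at 2 h in each of the 3 control and 3 IFNγ-treated naive CT26 samples, one point per sample. In each gene the treated points lie above the control points, with Irgm1 at 74.4 to 87.8 CPM in controls and 390 to 429 CPM at 2 h before the log.

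**Figure D2:**
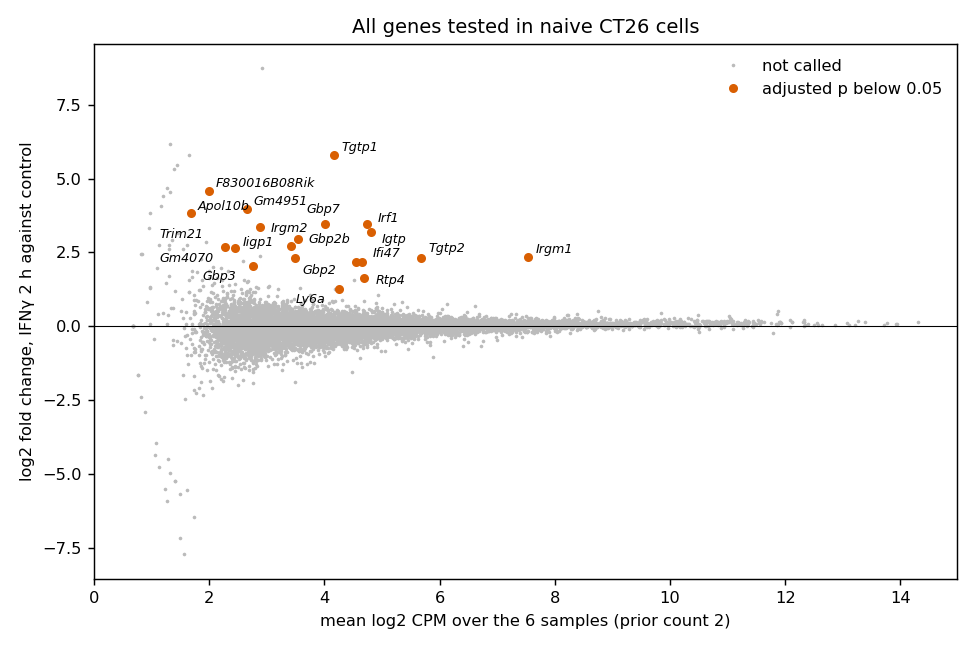
Log2 fold change at 2 h against control (vertical axis) by mean log2 CPM (horizontal axis) for the 8516 tested genes, with the 20 called genes marked and 19 of them labelled. The called genes all lie above 1 on the vertical axis, and the median of all genes is 0.00034.

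Irf1, which encodes a transcription factor of the pathway itself, was among the 20. The gene (ENSMUSG00000018899.16, chr11:53770014-53778374, plus strand, GRCm38) had 12, 11 and 11 counts in the control replicates and 130, 99 and 128 counts after 2 h. Those counts were 8.43, 6.82 and 6.48 CPM in controls and 83.1, 72.4 and 84.7 CPM in treated cells. The control values were close together and the treated values stood far above them, with means of 7.24 ± 1.04 and 80.1 ± 6.68 CPM (SD, n = 3 each). The log2 fold change was 3.46 ± 0.22 (SE), a factor of 11.0, with an adjusted p of 1.81e-15 by edgeR's quasi-likelihood test. The annotated gene Gm17334 overlaps Irf1 on the other strand, and their reads could be shared.

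Promoters of 8 called genes are shown because the letters of GAS and ISRE elements can be read in them next to the values. RefSeq promoter sequence (GRCm38.p6) was matched by symbol for 13 of the 19 genes; F830016B08Rik, Gm4951, Iigp1, Gm4070, Rtp4 and Ly6a had no entry. In the 250 bases before each start, both strands were searched for the GAS letters TTCNNNGAA and the ISRE letters GAAANNGAAA, which do not overlap one another where both occur below. The 120 bases before the start follow, 5′ to 3′ on the strand of the gene, with GAS and ISRE matches in capitals. Irf1 holds a GAS match without an ISRE match, 5 genes hold both, and Irgm1 and Gbp2 are 2 of the 4 genes with ISRE matches alone. The others of those 4, Gbp2b and Gbp3, and the 3 genes without a match are not printed.
Irf1, chr11:53769894-53770013, plus strand: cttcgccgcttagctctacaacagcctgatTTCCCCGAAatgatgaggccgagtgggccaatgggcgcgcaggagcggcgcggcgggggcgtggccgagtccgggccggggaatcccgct
Igtp, chr11:58199436-58199555, plus strand: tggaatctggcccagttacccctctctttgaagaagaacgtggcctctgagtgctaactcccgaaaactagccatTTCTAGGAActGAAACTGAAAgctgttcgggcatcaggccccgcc
Irgm2, chr11:58214857-58214976, plus strand: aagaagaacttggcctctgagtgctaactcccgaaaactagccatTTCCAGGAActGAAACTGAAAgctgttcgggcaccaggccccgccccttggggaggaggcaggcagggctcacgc
Tgtp1, chr11:48992247-48992366, minus strand: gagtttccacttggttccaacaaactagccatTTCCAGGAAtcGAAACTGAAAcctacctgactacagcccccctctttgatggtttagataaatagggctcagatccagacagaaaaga
Tgtp2, chr11:49064213-49064332, minus strand: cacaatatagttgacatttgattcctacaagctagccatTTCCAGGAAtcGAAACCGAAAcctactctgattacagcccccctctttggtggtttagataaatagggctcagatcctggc
Gbp7, chr3:142530216-142530335, plus strand: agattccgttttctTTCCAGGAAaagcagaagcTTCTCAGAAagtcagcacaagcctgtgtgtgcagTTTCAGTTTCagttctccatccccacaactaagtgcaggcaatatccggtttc
Irgm1, chr11:48871421-48871540, minus strand: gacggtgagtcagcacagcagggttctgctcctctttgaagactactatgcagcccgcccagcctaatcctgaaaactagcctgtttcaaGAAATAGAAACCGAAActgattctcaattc
Gbp2, chr3:142620543-142620662, plus strand: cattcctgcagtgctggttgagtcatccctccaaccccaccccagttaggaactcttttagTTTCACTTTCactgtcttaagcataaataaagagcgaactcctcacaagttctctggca

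In Igtp, Irgm2, Tgtp1 and Tgtp2 a GAS match was followed after 2 bases by an ISRE match, and the pair began 45, 75, 88 and 81 bases before the start. Gbp7 held 2 GAS matches, 106 and 87 bases before its start, and an ISRE match 53 bases before it. In Irf1 the GAS match began 90 bases before the start. Irgm1 carried a pair of overlapping ISRE matches, the nearer 24 bases before its start, and the ISRE match of Gbp2 began 59 bases before it.

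Counted by gene over all promoters a gene has in the table, 6 of the 13 genes had a GAS match, 9 an ISRE match, 5 both and 10 at least one. Apol10b, Trim21 and Ifi47 had neither in the 250 bases. Counted in the same way among all 27025 genes with a RefSeq promoter, 8.13% had a GAS match, 3.46% an ISRE match and 0.459% both. Among the 6405 of them tested in CT26 the shares were 6.81%, 3.50% and 0.453%. A match describes letters in the sequence and shows no binding.

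Of the immunity-related GTPases listed, 9 of 9 tested members were higher at 2 h, with a median log2 fold change of 3.19 against 0.00034 over all genes. With only the 6 libraries in the fit, 8 listed members were tested and all 8 were called. The list was compiled with earlier results known and its count depends on its members. The predicted genes Gm4841, Gm12185 and Gm12250 were not listed and are named after their values were seen. Gm4841 had 0, 0 and 1 counts in controls and 5, 3 and 4 at 2 h. Gm12185 had 0, 1 and 0 and then 3, 2 and 3, and it overlaps Tgtp1 on the same strand, so their reads could be shared. Gm12250, annotated as a processed pseudogene, went the other way, with 0, 2 and 0 counts and then 0, 0 and 0. None of these predicted genes passed. Gvin1, listed, had no count in these 6 samples and was not tested. Irgm1 (ENSMUSG00000046879.7, chr11:48861968-48871683, minus strand), a regulatory IRG that protects self membranes, was already present in untreated cells. It had 125, 120 and 141 counts in controls (87.8, 74.4 and 83.0 CPM) and 666, 533 and 648 counts at 2 h (426, 390 and 429 CPM). The log2 fold change of 2.34 ± 0.12 had the lowest adjusted p of all genes, 4.23e-19 (edgeR), and amounted to 5.08-fold. That low p went with the highest counts among the 20 genes.

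Igtp (ENSMUSG00000078853.8, chr11:58199556-58207591, plus strand) and Irgm2 (ENSMUSG00000069874.7, chr11:58199618-58222782, plus strand), the other regulatory members, overlap on the same strand. Igtp had 11, 15 and 14 counts in controls and 130, 105 and 110 at 2 h, a log2 fold change of 3.19 ± 0.21 with an adjusted p of 1.81e-15 (edgeR). Irgm2 had 3, 2 and 2 counts in controls and 26, 18 and 28 at 2 h, with a log2 fold change of 3.36 ± 0.51. Because the division of reads between them is uncertain, they were also summed. The sum went from 9.93 ± 0.562 CPM to 93.7 ± 5.30 CPM (SD, n = 3 each), a ratio of 9.43.

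Tgtp1 (ENSMUSG00000078922.9, chr11:48985327-48994172, minus strand) and Tgtp2 (ENSMUSG00000078921.3, chr11:49057194-49064206, minus strand), effector IRGs first described in T cells, are near-identical copies. Tgtp1 had 10, 0 and 0 counts in controls and 96, 201 and 246 at 2 h. Tgtp2 had 27, 38 and 46 counts in controls and 294, 87 and 148 at 2 h. The replicate with the most Tgtp2 had the least Tgtp1 at 2 h, and the single values of either gene are uncertain for that reason.

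Summed, the copies gave 26, 23.6 and 27.1 CPM in controls and 249, 211 and 261 CPM at 2 h, a ratio of 9.41 between means of 25.5 ± 1.81 and 240 ± 26.2 CPM. The sum varied less between replicates than either copy alone. The fitted log2 fold changes were 5.80 ± 0.64 for Tgtp1 and 2.32 ± 0.40 for Tgtp2, with adjusted p values of 4.44e-08 and 0.000567 (edgeR). The Tgtp1 value was 5.19 without control replicate 3 and 10.26 without control replicate 1, which leaves controls at 0, so that the fitted size then depends on the prior count. Leaving out 2 h replicate 1 took Tgtp2 to 1.80 with an adjusted p of 0.0698.

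The remaining IRGs started from few counts. Iigp1, an effector that coats parasite vacuoles, had 7, 7 and 2 counts in controls and 29, 37 and 35 at 2 h, a log2 fold change of 2.72 ± 0.37. Ifi47 (chr11:49076587-49096974, plus strand) had 22, 15 and 15 counts and then 79, 51 and 94, a log2 fold change of 2.18 ± 0.25. Gm4951 had 1, 2 and 1 counts and then 26, 16 and 24, a log2 fold change of 3.98 ± 0.45. None of the 3 overlapped between the groups, and their adjusted p values by edgeR were 3.30e-06, 4.44e-08 and 4.44e-08. F830016B08Rik had 1, 0 and 0 counts in controls against 16, 8 and 9 at 2 h. Its 33 counts against 1 gave a ratio of 35.2 with a 95% counting interval of 5.89 to 1431, so the size of its rise was poorly fixed. The fitted log2 fold change of 4.59 became 6.22 without control replicate 1, the control with that count.

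Guanylate-binding proteins were called in 4 of 10 tested members, all within chr3:142530342-142638008. With only the 6 libraries in the fit, 4 members were tested and 3 were called. Gbp7 (ENSMUSG00000040253.15) had 7, 8 and 4 counts in controls and 65, 58 and 77 at 2 h, which was 4.92, 4.96 and 2.36 CPM against 41.6, 42.4 and 51.0 CPM. The lowest treated sample stood far above the highest control. Its log2 fold change was 3.45 ± 0.27, with an adjusted p of 1.56e-12 (edgeR). Gbp2b had 4, 6 and 6 counts in controls and 30, 33 and 55 at 2 h (log2 fold change 2.94 ± 0.31, adjusted p 9.16e-09 by edgeR).

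Gbp2 had 6, 2 and 13 counts in controls and 29, 33 and 37 at 2 h, with a log2 fold change of 2.31 ± 0.31. Gbp3 had 1, 8 and 3 counts and then 20, 14 and 14, with a log2 fold change of 2.05 ± 0.34. The controls of both were scattered over a wider range than those of Gbp7, yet stayed below every treated sample. Their adjusted p values were 3.28e-06 and 0.000269 (edgeR), and that of Gbp3 was 0.170 when only the 6 libraries were fitted, at a log2 fold change of 2.03. The scattered controls moved the sizes, to 3.04 for Gbp2 without control replicate 3 and to 2.98 for Gbp3 without control replicate 2. Gbp4, which did not pass, had 9, 4 and 2 counts in controls and 14, 7 and 12 at 2 h, a log2 fold change of 1.20 ± 0.52. Of the other tested members, Gbp5, Gbp6, Gbp8, Gbp9 and Gbp10 had at most 9 counts in any of the 6 samples.

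Of the other 5 genes, Rtp4, an interferon-induced chaperone of membrane receptors, had the lowest adjusted p. It had 23, 22 and 20 counts in controls and 75, 66 and 48 at 2 h, a log2 fold change of 1.62 ± 0.22 with an adjusted p of 3.30e-06 (edgeR). Trim21, a ubiquitin ligase that binds antibody in the cytosol, had 1, 3 and 1 counts against 14, 9 and 10, with a log2 fold change of 2.70 ± 0.48 and an adjusted p of 0.000741 (edgeR), and 3.34 without control replicate 2. Treated and control samples were apart in both genes. Ly6a, a lipid-anchored surface protein also called Sca-1, had 14, 16 and 23 counts against 48, 34 and 39, and the lowest log2 fold change of the 20, 1.28 ± 0.28.

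Gm4070, a very large interferon-inducible GTPase gene, had 0, 3 and 4 counts in controls and 10, 9 and 25 at 2 h, a log2 fold change of 2.67 ± 0.61. Apol10b, an apolipoprotein L gene, had 0, 0 and 1 counts and then 8, 7 and 4, so 19 counts stood against 1. Ly6a, Gm4070 and Apol10b had the highest adjusted p values of the 20 by edgeR, 0.0172, 0.0350 and 0.0233, and each call was lost when single libraries were left out. Without control replicates 1 or 2, the adjusted p was 0.152 or 0.186 for Ly6a, 0.359 or 0.145 for Gm4070 and 0.244 or 0.310 for Apol10b. Without 2 h replicate 1 it was 0.171 for Ly6a and 0.142 for Apol10b, and without 2 h replicate 2 it was 0.115 for Apol10b. For Gm4070 it was 0.0603 without control replicate 3 and 0.896 without 2 h replicate 3. Where these calls were lost, the log2 fold change stayed at 1.18 to 1.21 for Ly6a and 3.39 to 3.68 for Apol10b, and at 2.07 to 3.21 for Gm4070, lowest without 2 h replicate 3. Without control replicate 3, which held the 1 control count of Apol10b, its fitted value was 5.44.

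A few genes stood just beyond the threshold and are named after their values were seen. Sp110, a nuclear body protein, had 1, 1 and 1 counts in controls and 10, 6 and 7 at 2 h, with a log2 fold change of 2.84 and an adjusted p of 0.10 by edgeR. Apol9a had 45, 42 and 42 counts and then 70, 63 and 70, a log2 fold change of 0.74 with an adjusted p of 0.153. Ifi203, a DNA-binding interferon-inducible gene, had 34, 32 and 35 counts and then 48, 56 and 59, a log2 fold change of 0.78 with an adjusted p of 0.196. The groups did not overlap in Sp110, Apol9a and Ifi203, a separation that 675 of the 8516 tested genes also showed. Apol6 had 0 counts in the controls and 3, 3 and 4 at 2 h, with an adjusted p of 0.206.

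Mt2, a metallothionein that binds zinc and copper, had far more reads behind it, with 508, 591 and 601 counts in controls and 847, 723 and 733 at 2 h. All treated samples lay above the controls, but the change was small, with a log2 fold change of 0.53 and an adjusted p of 0.183 by edgeR. It was called by DESeq2 (adjusted p 0.0487), with only the 6 libraries in the fit (0.000484) and without the shallowest libraries of the line (0.0367).

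Other components of the pathway were followed through lists, and most of them had not passed the test at 2 h. The receptor gene Ifngr1 had 9, 20 and 21 counts in controls and 24, 7 and 9 at 2 h, and Jak1 had 18, 20 and 19 against 19, 18 and 19. Stat2, a transcription factor of type I interferon signalling, had 3, 1 and 8 counts against 8, 13 and 5. The 3 genes overlapped between the groups. Of 7 tested IRF and transactivator genes, Irf1 alone was called, with Irf9 at 212, 236 and 230 counts in controls and 226, 232 and 265 at 2 h.

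No gene of the list of feedback genes was called among 7 tested. Socs1, the main inhibitor of JAK kinases in this pathway, had 2, 3 and 2 counts against 2, 4 and 3, a log2 fold change of 0.44 ± 0.86, and such counts could not show a change of moderate size. Socs3 had 1, 3 and 3 counts against 5, 6 and 7, a log2 fold change of 1.41 ± 0.69 that did not pass. Usp18, the peptidase that removes ISG15, had 10, 14 and 9 counts against 16, 16 and 27, a log2 fold change of 0.92 ± 0.33. Socs3 and Usp18 did not overlap between the groups but missed the threshold, and 7.93% of all tested genes were separated in the same way.

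Antigen presentation was not called at 2 h in any of 17 tested genes, and the list median was 0.21. Fitted on the 6 libraries alone, 14 members were tested and 0 were called. B2m, the invariant chain of MHC class I, had 1062, 1169 and 1199 counts in controls and 1295, 1065 and 1224 at 2 h, a log2 fold change of 0.15 ± 0.13. H2-K1 had 63, 81 and 82 counts against 62, 59 and 70, a log2 fold change of -0.15 ± 0.22. In neither gene were the groups apart. Tap1, the peptide transporter, had 5, 2 and 5 counts against 9, 11 and 14 (log2 fold change 1.56 ± 0.62), and the immunoproteasome subunit Psmb9 had 2, 3 and 11 against 9, 10 and 13 (1.08 ± 0.43). Neither of those passed. The groups were apart in Tap1, as in 7.93% of all tested genes, and overlapped in Psmb9. Of the 17 genes, 15 had positive fold changes, as did 4262 of all 8516 tested.

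Of 27 tested antiviral genes, Rtp4 was the 1 called, and the list median was 0.28. Fitted on the 6 libraries alone, 13 members were tested and 1 was called. Ifit3 had 6, 1 and 2 counts against 1, 2 and 5, Isg15 had 4, 4 and 5 against 3, 1 and 3, and Ifi44 had 6, 8 and 7 against 10, 5 and 12. No member of the other groups passed either: 0 of 7 interferon-induced PARP genes and Dtx3l (median 0.69), 0 of 2 tested chemokine and Csf1 genes, 0 of 5 checkpoint and lymphocyte ligand genes, 0 of 17 immediate-early genes (median -0.12), 0 of 6 NF-kB genes (median 0.09) and 0 of 10 reference genes (median 0.13). Parp14, an ADP-ribosyltransferase, had 1, 3 and 0 counts in controls and 7, 7 and 1 at 2 h, a log2 fold change of 1.88 ± 0.85.

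A pair of genes of interest for tumour immunity was at the edge of detection. Cd274, which encodes the checkpoint ligand PD-L1, had no count in the 3 controls and 1, 2 and 8 counts at 2 h. Its adjusted p was 0.272 (edgeR), and with most treated libraries below 3 counts no fold is given. Cxcl10, a chemokine that draws T cells, had 2, 5 and 0 counts in controls and 0, 10 and 4 at 2 h, a log2 fold change of 1.06 ± 0.82. Cxcl9 and all 3 classical MHC class II genes listed had no count in these 6 samples. Counting intervals cover counting error alone.

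**Figure D3:**
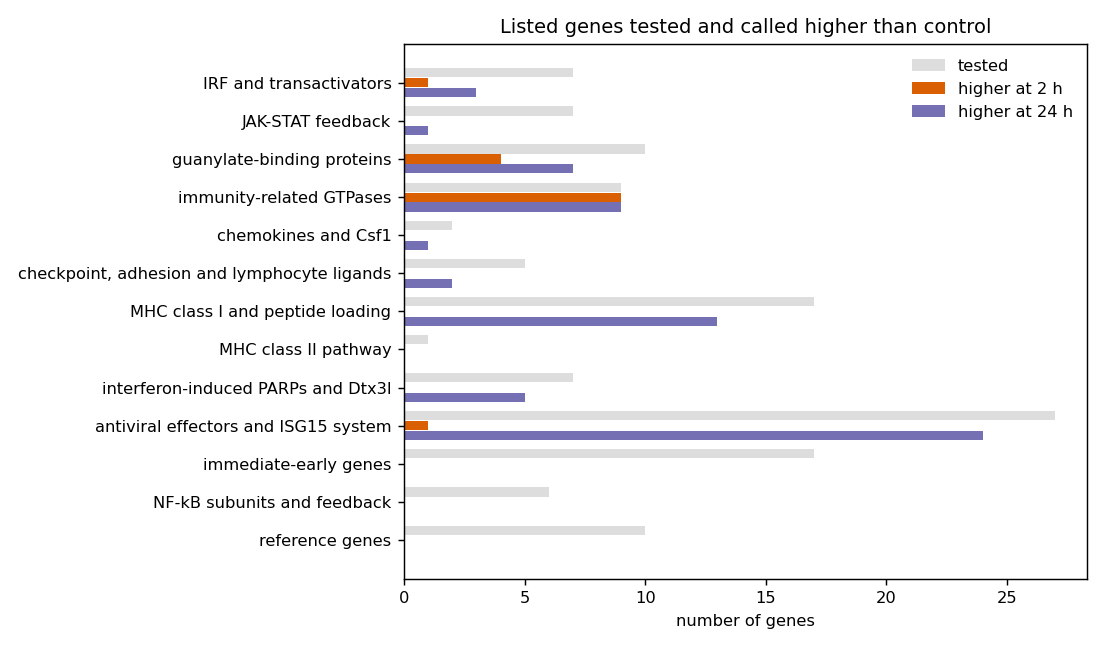
For 13 gene lists, the number of genes tested in CT26 (grey bars) and the number called higher than control at 2 h (orange) and at 24 h (purple). Listed IRGs reach 9 of 9 at both times, while MHC class I genes go from 0 to 13 of 17 and antiviral genes from 1 to 24 of 27.

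After 24 h of IFNγ, 151 genes (1.77% of those tested) were above the same 3 controls and 23 below. The 24 h and 2 h comparisons share those controls, so the times were compared directly as well. By that test 113 genes (1.33%) were higher and 62 (0.728%) lower at 24 h than at 2 h; DESeq2 split its calls into 129 higher and 108 lower, and scaling to library totals into 177 and 58. The 24 h libraries held 519097, 618598 and 1337965 counts, fewer than those at 2 h, and of 10 reference genes 5 were called lower and 1 higher at 24 h, with a median of -0.44. Leaving out 24 h replicate 3, the deepest, raised the number of calls between the times from 175 to 288 and against control from 174 to 283, and leaving out replicate 1 lowered the former to 112.

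All 20 genes of the 2 h set were also called above the same controls at 24 h, an overlap that the shared controls favour. Between the times, 15 of the 20 were higher at 24 h, 1 was lower and 4 were not called. The 1 lower gene was Irf1, which had 27.5, 42.1 and 36.8 CPM at 24 h, below every 2 h sample (72.4 to 84.7 CPM) and above every control (6.48 to 8.43 CPM). Its log2 fold change between the times was -1.15 ± 0.20, with an adjusted p of 7.33e-05 by edgeR's quasi-likelihood test, and it was called lower under every alternative tried for that comparison. The reference genes named above moved the same way by -0.44 in median, and their part in the value was not tested.

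Irgm1, Irgm2, Gm4951 and Apol10b were the 4 genes without a call between the times. Irgm1 had 534, 532 and 508 CPM at 24 h, above every 2 h sample, and a log2 fold change of 0.34 ± 0.11 with an adjusted p of 0.105 (edgeR). Gm4951 had 25.5, 32 and 25 CPM at 24 h against 16.6, 11.7 and 15.9 CPM at 2 h, a log2 fold change of 0.87 ± 0.27 with an adjusted p of 0.0966. Irgm2 had 3, 15 and 33 counts at 24 h and Apol10b 3, 5 and 6. A p that misses the threshold does not show that these genes had reached a plateau.

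The genes called higher at 24 h than at 2 h differed in the size of that rise, and no time in between was sampled. Gbp3 had 124, 104 and 116 CPM at 24 h against 12.8, 10.2 and 9.27 CPM at 2 h, a log2 fold change of 3.39 ± 0.20. Ly6a had 238, 253 and 256 CPM against 30.7, 24.9 and 25.8 CPM, a log2 fold change of 3.19 ± 0.20. Gbp2 had 181, 172 and 222 CPM against 18.5, 24.1 and 24.5 CPM, a log2 fold change of 3.11 ± 0.19. These 3 genes had the largest rises between the times among the 20, with adjusted p values of 2.50e-17, 1.92e-16 and 8.77e-17 (edgeR). Igtp rose by 1.16 ± 0.15 between the times. Summed, Tgtp1 and Tgtp2 reached a mean of 1001 CPM, 4.16 times their 2 h mean.

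**Figure D4:**
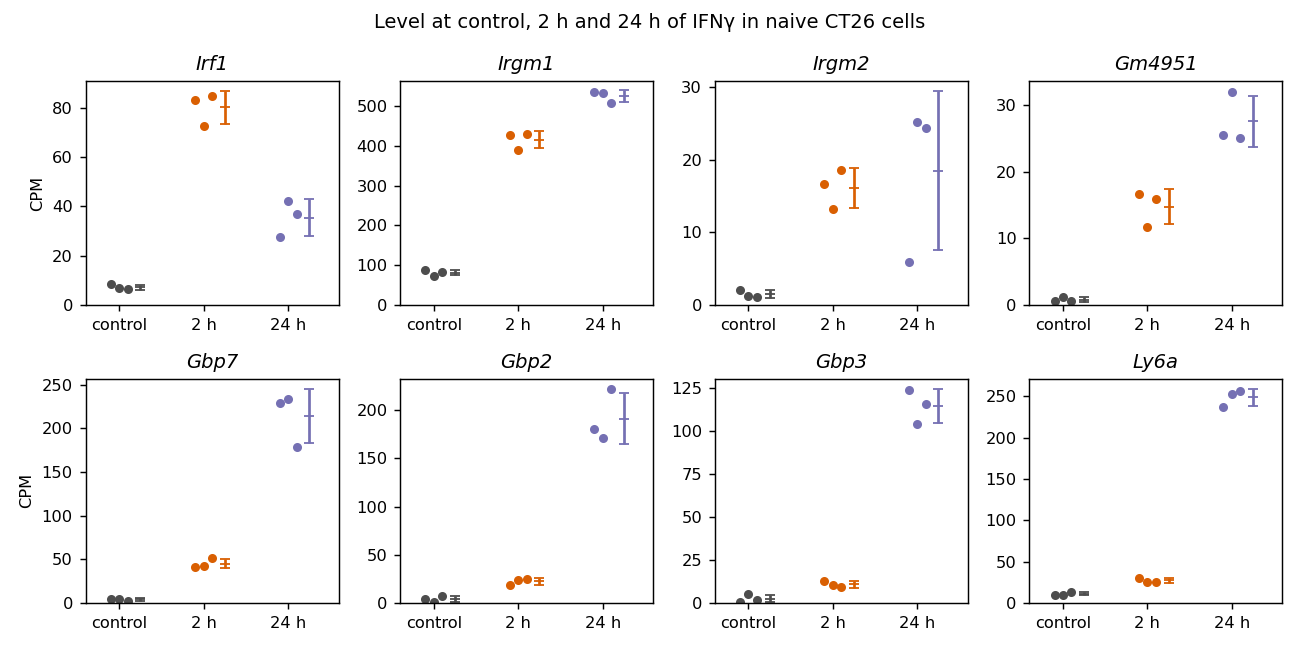
CPM of 8 of the 20 genes in naive CT26 controls, after 2 h and after 24 h of IFNγ (points are samples, bars mean ± SD, n = 3 each, linear axes that start at 0). Irf1 stands highest at 2 h (72.4 to 84.7 CPM) and lower at 24 h (27.5 to 42.1 CPM), while Gbp2, Gbp3, Gbp7 and Ly6a are highest at 24 h.

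Lists with 0 or 1 calls at 2 h held many at 24 h, each time against the shared controls. Over all genes tested, 0.235% were called higher at 2 h and 1.77% at 24 h. Genes high only at later times could enter the lists, since the filter looks at every group of the line. The 6 libraries of the 2 h comparison alone tested 14 MHC class I genes, 13 antiviral genes and 2 of the PARP list. The MHC class I list went from 0 to 13 of 17 and from a median of 0.21 to 1.67, and the direct test called 12 of the 17 higher at 24 h than at 2 h. Psmb9 had 53, 67 and 164 counts at 24 h, with log2 fold changes of 5.04 against control and 3.96 against 2 h. B2m was 0.92 above control and 0.76 above 2 h on the log2 scale. The antiviral list went from 1 to 24 of 27 and from a median of 0.28 to 2.70, and 24 of the 27 were called higher at 24 h than at 2 h. Ifit3 had 44, 31 and 86 counts at 24 h against 1, 2 and 5 at 2 h.

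Among GBPs the count went from 4 to 7 of 10, and 6 of the 10 were called higher at 24 h than at 2 h, with Gbp4 at 131, 107 and 169 counts. PARP genes and Dtx3l went from 0 to 5 of 7 against the shared controls, while the direct test called 1 of the 7 higher at 24 h than at 2 h. Parp14 had 5, 9 and 17 counts, a log2 fold change of 3.74 against control with an adjusted p of 0.000749 (edgeR) and of 1.86 against 2 h with an adjusted p of 0.104. Usp18 had 54, 49 and 175 counts at 24 h, 3.01 above 2 h on the log2 scale, and Irf7, the regulator of type I interferon genes, went from 4, 3 and 6 counts to 18, 21 and 78. Immediate-early and NF-kB lists had 0 calls against control at both times.

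The same treatment and time in YUMM2.1 cells, with its own controls, called 23 of 9589 genes higher (0.240%) and 0 lower by edgeR. At an unadjusted p below 0.05, 203 genes were higher and 145 lower there, and DESeq2 called 20 higher and 1 lower. Those 348 genes at an unadjusted p below 0.05 were again fewer than that threshold would pass with no change. Of the 20 CT26 genes 12 were called in YUMM2.1, which was 60% of the CT26 calls and 52.2% of the YUMM2.1 calls. They included Irf1, Igtp, Irgm1, Irgm2, Iigp1, Ifi47, Gm4951, Gbp2, Gbp3, Gbp7 and Rtp4. Irf1 had 19, 6 and 13 counts in YUMM2.1 controls and 397, 165 and 211 at 2 h, a log2 fold change of 4.07 ± 0.21 (SE).

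All 19 of the CT26 genes that could be tested in YUMM2.1 had positive fold changes there, as did 4899 of all 9589 genes tested in that line. Gbp2b had no count in any of the 6 YUMM2.1 samples, in contrast to 30, 33 and 55 counts in treated CT26 cells. Ly6a had 1, 0 and 0 counts in YUMM2.1 controls and 0, 0 and 2 at 2 h, and Apol10b had 1 count in the 6 samples. Tgtp1 had 51, 0 and 0 counts in controls and 63, 178 and 141 at 2 h, and together with Tgtp2 its CPM went up by a ratio of 4.24. Trim21 had 0 counts in YUMM2.1 controls and 13, 2 and 7 at 2 h, with an adjusted p of 0.0505 (edgeR).

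Of the 23 YUMM2.1 genes, 21 could be tested in CT26, and 9 of those were not called there: Cxcl10, Snx10, Samd9l, Gm12185, Gm4841, Ifit3, Gbp4, Gm12250 and Gbp6. Cxcl10 had 2, 1 and 3 counts in YUMM2.1 controls and 40, 22 and 19 at 2 h, apart from one another, whereas its CT26 values overlapped. Ifit3 had 7, 5 and 10 counts and then 55, 42 and 43 in YUMM2.1, against 6, 1 and 2 and then 1, 2 and 5 in CT26. Gm4841 had 0, 0 and 1 counts in CT26 controls and 5, 3 and 4 at 2 h, apart but with an adjusted p of 0.206.

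A call in one line without a call in the other does not show that the lines differ, so the difference between their responses was tested. Of 10339 genes, 0 passed by edgeR, and DESeq2 called 1, the pseudogene Rpl30-ps9. An unadjusted p below 0.05 was found in 368, fewer than that threshold would pass with no difference. For Irf1 the CT26 response less the YUMM2.1 response was -0.59 on the log2 scale, with a 95% interval of -1.31 to 0.12. For Gbp7 it was -0.35 (-1.28 to 0.59), for Gbp3 -0.96 (-2.21 to 0.30) and for Gm4951 -0.20 (-1.46 to 1.05), and those 4 intervals included 0.

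Several intervals lay below 0, although none of the genes passed after adjustment over all genes. The difference was -0.65 (-1.05 to -0.25) for Irgm1 and -1.36 (-2.18 to -0.53) for Igtp. For Iigp1 it was -2.29 (-3.65 to -0.93), for Gbp2 -1.61 (-2.56 to -0.67) and for Ifi47 -1.41 (-2.42 to -0.39). Ifit3 had -2.49 (-4.12 to -0.87) and Cxcl10 -2.34 (-4.50 to -0.19). The intervals are not adjusted for the number of genes.

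The naive response was also set beside 2 h of fresh IFNγ after long exposure, for which the samples without rechallenge served as reference. After 1 week, 31 genes were higher 2 h after rechallenge (0.364%) and 1 lower. After 2 weeks, 25 were higher (0.294%) and 1 lower, and after 3 weeks 1 was higher (0.0117%) and 0 lower, with 622 genes at an unadjusted p below 0.05. Of the 20 naive genes, 12 were called after 1 week, 11 after 2 weeks and 0 after 3 weeks. The differences of the 1-week and 2-week responses from the naive response were not tested.

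At 3 weeks the difference from the naive response was tested in 1 model without a shared sample. It was below 0 for 17 of 8516 genes (0.200%) and above 0 for 1, Krt20. Of the 20 naive genes, 16 were among the 17. The 20 genes were picked for a high naive response, which this difference subtracts, so values below 0 are favoured in them. Irf1 had 59.1, 92.7 and 72.9 CPM after 3 weeks without rechallenge and 115, 91.4 and 99.1 CPM 2 h after it, and its response was lower than the naive response by a log2 difference of -3.0 (95% interval -3.60 to -2.41). For Gbp7, which had 342, 326 and 321 CPM before and 312, 377 and 374 CPM after rechallenge, the difference was -3.36 (-4.00 to -2.72).

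The samples kept in IFNγ for 3 weeks thus began at levels above those of naive cells at 2 h for Gbp7 (41.6 to 51.0 CPM) and close to them for Irf1 (72.4 to 84.7 CPM). Irgm1 had 544, 489 and 537 CPM without and 645, 589 and 775 CPM with it, apart but with a log2 fold change of 0.36 that did not pass. The 4 naive genes without a called difference at 3 weeks were Apol10b, Trim21, Gm4070 and Ly6a. The libraries without rechallenge at 3 weeks held 1080409, 773942 and 295157 counts, and 17 genes were called without the last of them.

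**Figure D5:**
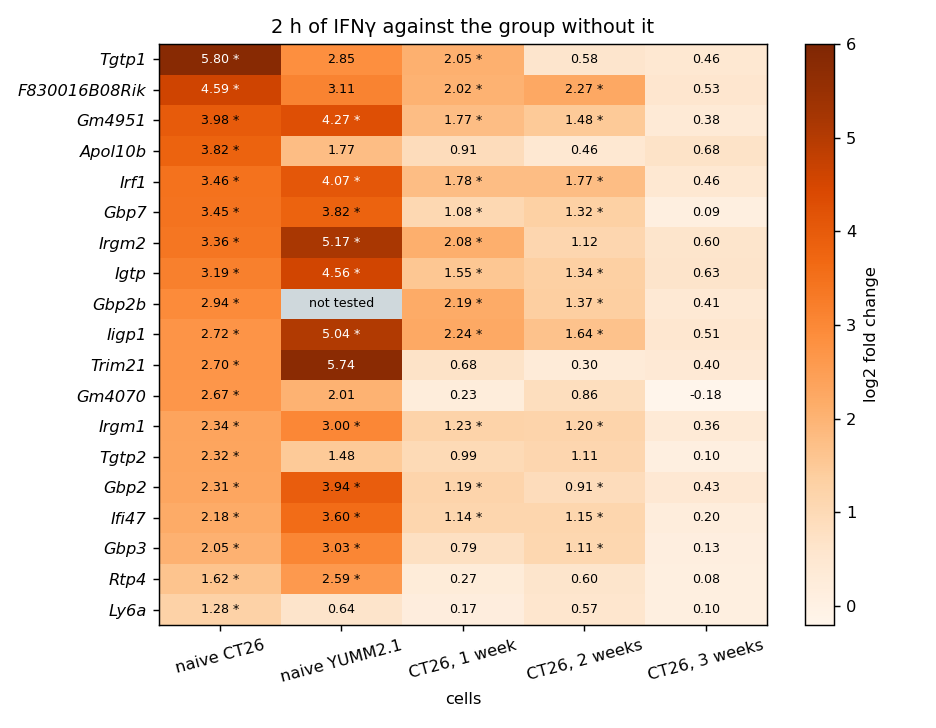
Log2 fold change of 19 of the 20 genes 2 h after IFNγ in naive CT26, naive YUMM2.1 and CT26 kept in IFNγ for 1, 2 or 3 weeks (rechallenged against not rechallenged), with asterisks at an adjusted p below 0.05. All 19 genes are marked in naive CT26, 11 in YUMM2.1, 12 and 11 at 1 and 2 weeks, and none at 3 weeks.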

How the data were processed

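RNA from triplicate experiments was measured by 3′ digital gene expression, a protocol that reads transcript ends. The file the authors deposited holds raw counts, whole numbers for each gene in each sample, with no normalization and no pooling of replicates. The submitters' processing notes name Salmon 0.13.1 and the genome build mm10, and the methods name tximport. Whether molecular identifiers were counted, and the annotation release, are not given in the sources used here. Where reads fit several near-identical genes, estimated shares can move counts between copies. The methods discard 1 YUMM2.1 and 4 CT26 samples without naming them, and all were kept. The study's reporting summary calls its replicates independent biological replicates; the labels give replicate numbers alone.

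Columns were matched to samples by name, with 0 left unused, and 53668 of 53697 gene identifiers were matched to a symbol. Total counts ranged from 1417934 to 1677329 in the 6 samples compared and from 274719 to 3161276 in all 90. Counts were analysed in R 4.3.3 with edgeR 4.0.16: filterByExpr by group, TMM scaling, and quasi-likelihood tests in 1 fit of the 15 groups of a line, or of both lines for the difference between them, adjusted by the method of Benjamini and Hochberg and called below 0.05. The filter looks at every group of a line, so a gene high only after long exposure could still be tested at 2 h. Standard errors come from the fold change and its F statistic. Log2 CPM used a prior count of 2, and intervals are at 95%.

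Named are all called genes of the 2 h comparison whose treated samples lay on 1 side of the controls (at most 25 higher and 10 lower), members of 14 pathway lists compiled by hand, and at most 5 genes in each direction from the differences between lines and between naive and 3-week cells. 1 called gene and its list are not reported here. The members and lists were chosen with earlier results of these data known. The tests were tried on simulated counts with known changes before use. In the 2 h comparison a simulated rise of 1 on the log2 scale was recovered in 44.5% of the changed genes, and a rise of 2 in 94%. Alternatives were DESeq2 1.42.0, library totals, no filter, the compared groups alone, a replicate block, leaving out libraries below 25% of their line's median total, leaving out each library, and a minimum absolute log2 fold change of 1. Coordinates follow GRCm38, and promoters are RefSeq sequence.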

Additional observations from a re-analysis of the deposited data

Results flagged for a closer look

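The response to 2 h of IFNγ differed between CT26 cells kept in the cytokine for 3 weeks and naive CT26 cells in 18 genes by a test of the difference itself (edgeR's quasi-likelihood test, adjusted p below 0.05). The differences, 3 weeks less naive on the log2 scale, were -5.34 for Tgtp1, -4.06 for F830016B08Rik, -3.60 for Gm4951, -3.36 for Gbp7 and -3.0 for Irf1. Tgtp1 shares reads with Tgtp2, and F830016B08Rik rests on 1 count in the naive controls. Its adjusted p was 0.138 by DESeq2, 0.0810 with only the compared groups, and 0.0630 or 0.0766 without naive control replicate 2 or 3. Krt20, a keratin of the gut lining, had the 1 positive difference, 1.24, with a log2 fold change of 1.24 at 3 weeks and of -0.0020 in naive cells. It was also the 1 gene called higher by rechallenge at 3 weeks. After 2 weeks Krt20 was called higher by rechallenge as well, with a log2 fold change of 0.74 and an adjusted p of 0.00577 (edgeR).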

How the results depend on the processing

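Under 7 settings other than the replicates left out, the number of genes called at 2 h stayed within 18 to 22 against 20, except without a filter on low counts, which gave 47 (34 higher, 13 lower). Without that filter the other counts were 299 between 24 h and 2 h against 175, 55 in YUMM2.1 against 23, 15 for the difference between lines against 0 and 54 for the 3-week difference against 18, and DESeq2 called 1 gene for the difference between lines. With each library left out in turn, the counts were 17 to 19 at 2 h, 135 to 283 at 24 h against 174, 112 to 288 between the times, 18 to 23 in YUMM2.1, 0 for the difference between lines and 13 to 21 for the 3-week difference. The cause was not tested. No direction reversed. Of the 20 genes, 15 kept their call under every alternative that tested them. Apol10b also lost its call with DESeq2 (adjusted p 0.284), Gm4070 with library totals (0.147), and Gbp3 with the compared groups alone. With the compared groups alone, 16 of the 20 were tested. F830016B08Rik, Apol10b, Trim21 and Gm4070 did not pass the filter there and entered the main test through other groups of the line.

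Deviations from the group means correlated between same-numbered control and 2 h samples at 0.176, 0.366 and -0.156 over 3757 genes. Between differently numbered samples the correlations lay between -0.337 and 0.150. These values do not settle whether the numbers pair the samples, and the numbers were treated as names. With the replicate block 20 genes were called at 2 h, 176 at 24 h, 196 between the times, 24 in YUMM2.1, 0 for the difference between lines and 19 for the 3-week difference. Depth limits what could be seen, since several of the 20 genes and many listed genes had fewer than 10 counts in each control library.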

Other observations

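Among genes outside the lists, chosen after their values were seen, Rpl30-ps9, a ribosomal protein pseudogene, had no count in the 3 naive CT26 controls and 129, 35 and 28 counts after 2 h of IFNγ, with an adjusted p of 0.454 by edgeR's quasi-likelihood test and of 0.00013 by DESeq2. Pseudogenes of this kind share sequence with their parent gene, and the division of reads between them is uncertain.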
